A study of Mus musculus with 6 samples.

Results

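The ribosomal S6 kinases are a family of serine/threonine kinases named for the small-subunit ribosomal protein S6, which several of them phosphorylate. The 10 family genes of the mouse (Rps6ka1, Rps6ka2, Rps6ka3, Rps6ka4, Rps6ka5, Rps6ka6, Rps6kb1, Rps6kb2, Rps6kc1 and Rps6kl1) were taken by name from the array design, in which 21 of 41174 non-control probes carry a family symbol and none carries an older one. Their expression was compared in abdominal white adipose tissue (WAT) of hNAG-1 transgenic and wild-type (WT) mice. hNAG-1 is human nonsteroidal anti-inflammatory drug-activated gene, also known as GDF15, a secreted member of the TGF-beta superfamily. All mice were female, on the C57/BL6 strain and 30 wk of age. WAT of 6 mice per genotype was pooled by 2, which gave 3 RNA pools of WT mice and 3 of hNAG-1 mice, each hybridized to its own single-colour Agilent array. The hNAG-1 mice came from a single transgenic line. The transgene is expressed in most tissues of these mice and reaches high levels in fat, according to the study's methods, and its promoter is not given in the sources used here. The array measures mouse transcripts, so it does not check the human transgene.

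The family has branches that differ in what switches them on. S6K1 and S6K2, encoded by Rps6kb1 and Rps6kb2, are activated by the nutrient- and insulin-sensing complex mTORC1 together with the kinase PDK1, and they promote translation and growth and phosphorylate IRS1 in a feedback on insulin signaling. The RSKs (Rps6ka1, Rps6ka2, Rps6ka3 and Rps6ka6) are activated by ERK, and the nuclear MSKs (Rps6ka4 and Rps6ka5) by ERK and p38. All of these are controlled largely by phosphorylation, which an mRNA array does not measure. Mice that lack S6K1 are known to be lean and insulin sensitive.

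No family gene passed the test for a difference between genotypes. By the brightest probe of each gene, the highest difference was in Rps6kb1, the gene of S6K1. In this gene all 4 tested probes were higher on average in hNAG-1 mice, by 0.12 to 0.54 on the log2 scale, the dimmest of them changing sign with the scaling. One of those probes excluded zero from its 95% interval before adjustment for the number of probes. Rps6kb2, Rps6ka1 and Rps6ka5 had positive differences in every tested probe, which turned negative for Rps6kb2 and Rps6ka5 under the normexp background correction. In Rps6ka4 alone all hNAG-1 arrays were below all WT arrays, as in 6.72% of all probes and 5.88% of the tested family probes (1 of 17). Rps6ka2, Rps6ka3, Rps6kc1 and Rps6kl1 had differences smaller than their standard errors in the brightest probe. The largest difference of any family probe, 1.00, was in a dim Rps6kl1 probe with a standard error of 0.51. Rps6ka6 was not measurable.

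The oligonucleotides behind these values are printed for the genes the results turn on. Each is 60 bases long and spotted 1 time, positions are those listed in the array design on mouse build mm7, and gene, exon and UTR annotation of that build was not used here. For Rps6kb1, on chromosome 11 and the minus strand, the first probe printed is whole, since its listed position of 1245 bases is longer than the probe and it therefore joins separate blocks of the genome. The other tested probes are given by their first 30 bases.
Rps6kb1 A_52_P170486, chr11:86602696-86603940: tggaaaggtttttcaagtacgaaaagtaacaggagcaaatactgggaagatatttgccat
Rps6kb1 A_51_P290299, chr11:86574708-86574767, first 30 bases: tatatgtgtgtatgtataacatatatctat
Rps6kb1 A_52_P166482, chr11:86571341-86571400, first 30 bases: tgatggccttttgatgaatgtcttccataa
Rps6kb1 A_51_P175205, chr11:86569155-86569214, first 30 bases: atagtacttttctcatgtgactcaacacta

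The probes of its paralog Rps6kb2 that span more of the genome than their length, on chromosome 19 and the minus strand, and the corresponding probe of Rps6ka1, on chromosome 4 and the minus strand, are shown to let the family members be told apart. The sequence of the single Rps6ka3 probe, on the plus strand of chromosome X, is shown because it is the gene's one measurement and its direction depended on the arrays and the background correction used.
Rps6kb2 A_51_P293553, chr19:4053475-4053645: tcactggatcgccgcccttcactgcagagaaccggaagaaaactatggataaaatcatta
Rps6kb2 A_52_P182450, chr19:4052354-4052500: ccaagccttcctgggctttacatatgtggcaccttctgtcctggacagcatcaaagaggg
Rps6ka1 A_52_P463556, chr4:133243828-133244218: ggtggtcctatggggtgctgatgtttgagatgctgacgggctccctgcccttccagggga
Rps6ka3 A_52_P283628, chrX:154137067-154137126: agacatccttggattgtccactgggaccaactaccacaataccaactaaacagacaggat

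The longest run of bases shared by probes of different family genes was 10, between Rps6ka5 and Rps6kc1. For Rps6kb1 and Rps6kb2 it was 8.

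Values below are log2 of the processed signal minus the 75th percentile of the array, so 0 is the level of that percentile, and they are compared between arrays within a probe. In intensity units that percentile lay between 913 and 970 in WT and between 629 and 858 in hNAG-1 mice. Between 70.8% and 81.6% of non-control probes were well above background. Pairs of arrays correlated at 0.966 to 0.987 (Pearson r across probes). The 3 WT arrays and hNAG-1 array 1 were on slide 1 and hNAG-1 arrays 2 and 3 on slide 2, scanned separately. Values within slide 1 are therefore given for family genes, pathway list medians and some marker lists, but not for single pathway genes. The markers Adipoq and Plin1 were well above background on all 6 arrays, at 8.05 to 8.36 for Adipoq and 6.33 to 7.02 for Plin1.

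Of the 21 family probes, 17 were well above background on at least 3 arrays, had a value on all 6 and were tested with limma among 31456 probes, with Benjamini-Hochberg adjustment over all of them and a threshold of 0.05. Since each array holds a pool of different mice, a p-value here reflects how far pools differ, and 3 pools a genotype limit the precision. None of the 17 passed, and neither did any of the 31456 (0%); the lowest adjusted p of a family probe was 0.280. At an unadjusted p under 0.05, 1 of 17 family probes (5.88%) was counted, a higher one, where 3867 of all probes (12.3%) were, 8.19% as higher and 4.11% as lower. The genotypes did not overlap in 5 of 17 family probes (29.4%), with hNAG-1 above WT in 4 and below in 1, and they did not overlap in 19.8% of all probes, with hNAG-1 above in 13.1% and below in 6.72%. The probes without overlap belonged to Rps6kb1 (2 probes), Rps6ka1, Rps6ka5 and Rps6ka4. The median log2 fold change was 0.15 over the 17 family probes and 0.05 over all probes, of which 57.7% were positive. The median size of the change, regardless of sign, was 0.25 in the family and 0.20 in all probes, and the median standard error in the family was 0.15.

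With each gene represented by its brightest tested probe, 4 of 9 family genes had positive and 5 negative differences (hNAG-1 minus WT). Over all 21059 genes 59.0% were positive. The family median was -0.01, against 0.06 over all genes. Averaging the probes of each gene instead gave 0.15, and quantile normalization gave -0.07, so the family as a group had no settled direction.

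**Figure D1:**
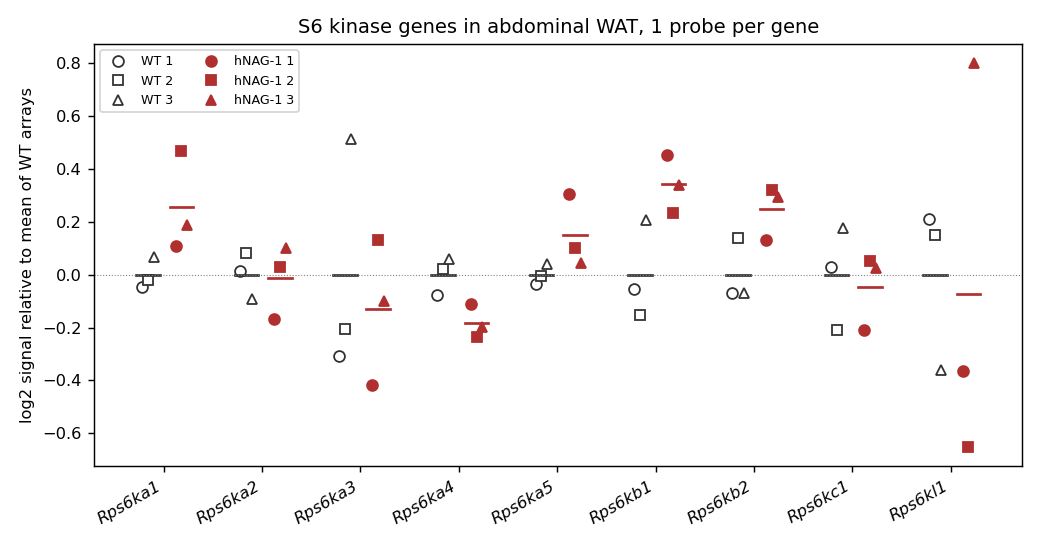
Log2 signal of the brightest tested probe of each S6 kinase gene on every array, as a difference from the WT mean of that probe (open symbols WT, filled symbols hNAG-1, symbol shape the replicate number, short bars the group means). Rps6kb1, Rps6ka1 and Rps6ka5 have all hNAG-1 arrays above all WT arrays, and Rps6ka4 has them all below. The genotypes do not overlap in these 4 of 9 genes and in 4260 of all 21059 genes. In Rps6ka3 WT array 3 lies apart from the other arrays.

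Rps6kb1 encodes S6K1, the kinase that phosphorylates ribosomal protein S6 downstream of mTORC1. Its brightest probe, A_52_P166482, read 0.28, 0.18 and 0.54 on WT arrays 1, 2 and 3 and 0.78, 0.56 and 0.67 on hNAG-1 arrays 1, 2 and 3. Every hNAG-1 array was above every WT array, although WT array 3 and hNAG-1 array 2 nearly met. The means were 0.33 ± 0.19 in WT and 0.67 ± 0.11 in hNAG-1 mice (SD, n = 3 each), a difference of 0.34 (SE 0.14) or 1.27-fold, with a 95% interval from 0.999 to 1.61-fold and an adjusted p of 0.408. Before scaling, the intensities overlapped, from 1032 to 1357 in WT and from 1000 to 1478 in hNAG-1 mice.

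The 3′-most probe, A_51_P175205, read -0.41, -0.53 and -0.13 in WT and 0.29, 0.14 and 0.13 in hNAG-1 mice. All 3 hNAG-1 arrays were above all 3 WT arrays on this scale. Before scaling, the intensities overlapped, from 630 to 858 in WT and from 690 to 1050 in hNAG-1 mice. The difference was 0.54 (SE 0.14), or 1.46-fold with an interval from 1.14 to 1.86-fold. It was the family probe with the smallest p in limma, 0.00971 unadjusted and 0.280 after adjustment.

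The 5′ probe, A_52_P170486, lies 34.7 kb from A_51_P175205 along the gene. It read -1.64, -1.76 and -1.24 in WT and -1.13, -1.26 and -1.08 in hNAG-1 mice. WT array 3 was again the highest WT array, at about the level of hNAG-1 array 2, so the groups overlapped there and the other WT arrays were below all hNAG-1 arrays. The difference was 0.39 (SE 0.17, adjusted p = 0.424). Leaving out 1 array at a time gave from 0.28 without WT array 2 (adjusted p = 0.651) to 0.54 without WT array 3 (adjusted p = 0.197).

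The remaining Rps6kb1 probes were dim. A_51_P290299 read -4.47, -4.26 and -4.13 in WT and -4.07, -4.42 and -4.02 in hNAG-1 mice. The groups overlapped, the difference was 0.12 (SE 0.16, adjusted p = 0.793), and it was -0.02 with quantile normalization and -0.51 with the normexp background correction, so the direction of this probe depended on the scaling. The probes A_52_P193994 and A_52_P372321, between the 5′ probe and the others, were well above background on 2 and 0 WT arrays and on 0 hNAG-1 arrays. For A_52_P193994 no lower bound above 1-fold could be set, and neither probe was tested.

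**Figure D2:**
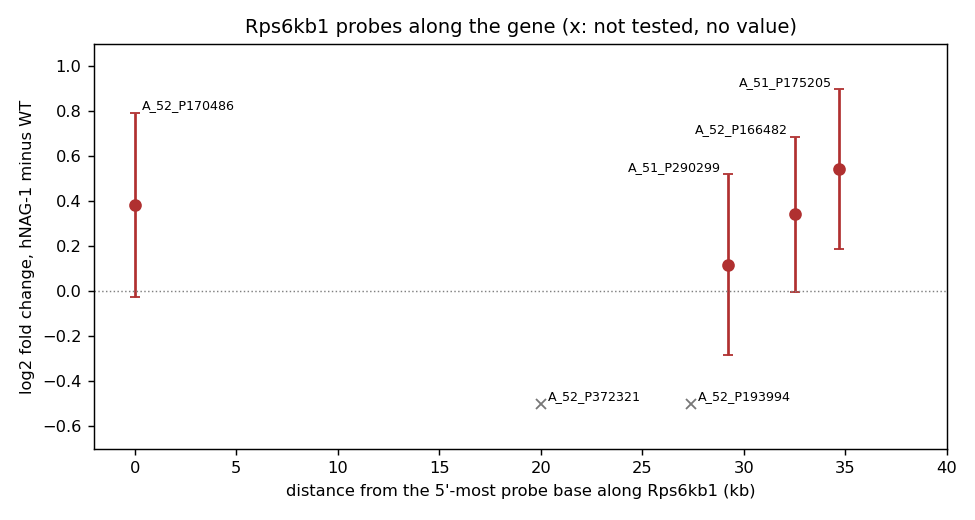
Log2 fold change, hNAG-1 minus WT, of the Rps6kb1 probes against their distance in kb from the 5′-most probe base (points, with 95% intervals as bars; crosses mark the untested probes and have no value). The 4 tested probes are above 0 (A_51_P290299 falls below it with quantile normalization or normexp), and the interval of A_51_P175205, from 0.19 to 0.90, is the one that lies wholly above it.

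On slide 1 alone, which held all WT arrays and hNAG-1 array 1, the Rps6kb1 differences were 0.65 for A_51_P175205, 0.45 for A_52_P166482, 0.41 for A_52_P170486 and 0.22 for A_51_P290299, with adjusted p-values from 0.785 to 0.869 and a lone hNAG-1 array taken to vary like the WT arrays. They had the same sign as over all 6 arrays and were each larger. Over all 17 alternatives, the Rps6kb1 difference ranged from 0.27 to 0.45 and its adjusted p from 0.242 to 0.891. The brightest probe was used, except where the probes of the gene were averaged (0.35).

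Adipocyte markers moved in the same direction as Rps6kb1. All 8 of 8 (Adipoq, Plin1, Fabp4, Cidec, Lipe, Pnpla2, Pparg and Cfd) had positive differences, none past the adjusted threshold, with a median of 0.24. Their summed signal, relative to the 75th percentile, ranged from 1627 to 1925 in WT and from 1951 to 2368 in hNAG-1 mice. The median of these markers was 0.01 with quantile normalization, 0.44 with normexp and 0.14 with slide as a fixed term. The difference of the brightest Rps6kb1 probe was 0.34, 0.30 and 0.45 in those settings. The part of adipocyte content in the Rps6kb1 values was not tested. In whole tissue, fewer cells of a type and less RNA per cell cannot be told apart.

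Rps6kb2 encodes S6K2, the paralog of S6K1 with a similar place below mTORC1. Its brightest probe, A_51_P293553, read -1.61, -1.41 and -1.61 in WT and -1.41, -1.22 and -1.25 in hNAG-1 mice. WT array 2 and hNAG-1 array 1 were at about the same level, and the other arrays separated by genotype. The difference was 0.25 (SE 0.12), or 1.19-fold with an interval from 0.97 to 1.46-fold and an adjusted p of 0.469, and with normexp it was -0.05, against a median of -0.25 over all probes in that setting. The second probe, A_52_P182450, had a difference of 0.15 (SE 0.13), and the dim A_52_P277335 one of 0.26 with the wide standard error of 0.36. All 3 were positive over the 6 arrays and negative with normexp, and on slide 1 alone they were 0.13, 0.09 and -0.40. Without WT array 3 the second was 0.05 and the last 0.0081, and without hNAG-1 array 2 the last was 0.06.

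**Figure D3:**
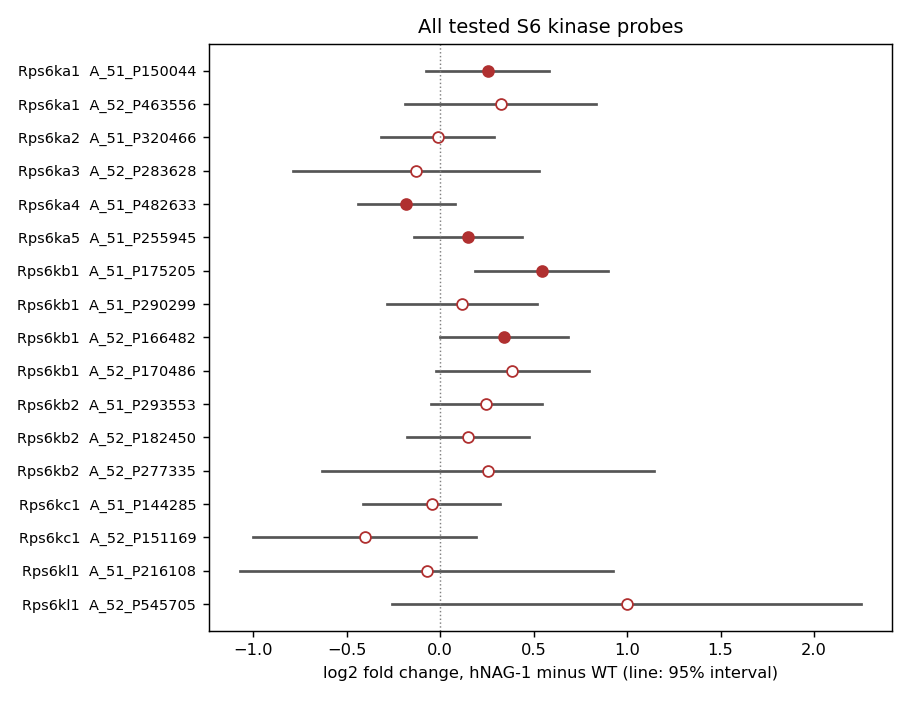
Log2 fold change, hNAG-1 minus WT, of the 17 tested S6 kinase probes with 95% intervals (filled points: genotypes do not overlap; open points: they overlap). Of the intervals, 16 include 0, and the widest, from -0.26 to 2.25, is that of the dim Rps6kl1 probe A_52_P545705.

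Among the RSKs, Rps6ka1 (RSK1) was measured by a pair of probes. A_51_P150044 read -0.72, -0.69 and -0.61 in WT and -0.57, -0.21 and -0.49 in hNAG-1 mice. The hNAG-1 arrays were all above the WT arrays, hNAG-1 array 1 by little and hNAG-1 array 2 by most. The difference was 0.26 (SE 0.13), or 1.19-fold with an interval from 0.95 to 1.50-fold and an adjusted p of 0.493. A_52_P463556 read -1.41, -1.40 and -1.56 in WT and -1.55, -0.81 and -1.04 in hNAG-1 mice, again highest on hNAG-1 array 2, and hNAG-1 array 1 was within the WT range. Its difference was 0.32 (SE 0.21, adjusted p = 0.568). Without hNAG-1 array 2 the differences of these probes were 0.15 and 0.16, and on slide 1 alone 0.11 and -0.09.

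Lymphocyte markers were also highest on hNAG-1 array 2. All 8 of 8, among them Cd3e, Cd3g, Cd8a, Cd4, Cd79a, Cd79b and Ms4a1, had positive differences without passing the test, their median level relative to the WT mean was 1.07 on that array and between -0.21 and 0.35 on the others, and their summed signal relative to the 75th percentile was 1.57 to 2.69 in WT and 2.22 to 4.26 in hNAG-1 mice. The lymphocyte median of 0.47 was 0.17 without hNAG-1 array 2, -0.01 on slide 1 alone and -0.26 with normexp. Their part in the Rps6ka1 values was not tested.

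Rps6ka3 encodes RSK2, the gene mutated in Coffin-Lowry syndrome. Its probe read 0.79, 0.90 and 1.61 in WT and 0.68, 1.23 and 1.00 in hNAG-1 mice. WT array 3 stood above all other arrays, and the hNAG-1 arrays spread around the other WT arrays. The difference was -0.13 (SE 0.27, adjusted p = 0.865), and its interval, from -0.78 to 0.53, holds changes of either sign. Without WT array 3 it was 0.13, without hNAG-1 array 1 it was 0.016, and on slide 1 alone -0.42.

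Rps6ka2 encodes RSK3. Its probe was dim but well above background on all arrays, at -3.70, -3.63 and -3.80 in WT and -3.88, -3.68 and -3.61 in hNAG-1 mice. The groups overlapped throughout, with hNAG-1 mice holding both the lowest and the highest array. The difference was -0.01 (SE 0.12), with an interval from 0.80 to 1.22-fold, and -0.17 on slide 1 alone.

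Rps6ka6 encodes RSK4. Its intensity was 5.69, 11.8 and 2.74 in WT and 1.91, 6.22 and 4.81 in hNAG-1 mice. Only WT array 2 was well above background, so the gene was not tested and no fold is given.

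The MSKs are nuclear kinases that phosphorylate CREB and histone H3. Rps6ka4 (MSK2) read 1.61, 1.71 and 1.75 in WT and 1.58, 1.45 and 1.49 in hNAG-1 mice. All hNAG-1 arrays were below all WT arrays, although hNAG-1 array 1 and WT array 1 nearly met. The difference was -0.18 (SE 0.11), or 0.88-fold with an interval from 0.74 to 1.05-fold and an adjusted p of 0.531. It was -0.11 on slide 1 alone, and -0.04 with normexp, which lies above that setting's median over all probes.

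Rps6ka5 (MSK1) read -3.02, -2.99 and -2.94 in WT and -2.67, -2.88 and -2.94 in hNAG-1 mice. The hNAG-1 arrays were above the WT arrays, but hNAG-1 array 3 and WT array 3 were nearly equal, and hNAG-1 array 1 was the highest of all. The difference was 0.15 (SE 0.12, adjusted p = 0.631), 0.07 without hNAG-1 array 1 and 0.31 on slide 1 alone. With normexp the sign turned, at -0.40.

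The last branch is divergent in sequence. Rps6kc1 encodes a protein with a phosphoinositide-binding PX domain that binds sphingosine kinase. Its brightest probe, A_51_P144285, read 1.62, 1.39 and 1.77 in WT and 1.38, 1.64 and 1.62 in hNAG-1 mice, a difference of -0.05 (SE 0.15) with an interval from 0.75 to 1.25-fold. The groups overlapped almost fully, and on slide 1 alone the difference was -0.21. The dim probe A_52_P151169 had a difference of -0.40 (SE 0.24, adjusted p = 0.546). It was lowest on hNAG-1 array 3, without which the difference was -0.17, and on slide 1 alone it was -0.18. The remaining probe of the gene, A_51_P336083, was flagged as an outlier on WT array 3 and therefore not tested; it read -2.71 and -2.53 on the other WT arrays and -2.88, -2.74 and -2.75 in hNAG-1 mice, all of them below both WT values.

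Rps6kl1 encodes an S6 kinase-like protein whose function is little known. Its brightest probe had the largest standard error among the brightest probes of the 9 tested genes. This probe, A_51_P216108, read 0.24, 0.18 and -0.33 in WT and -0.33, -0.62 and 0.83 in hNAG-1 mice. The hNAG-1 arrays included both the lowest and the highest value, and the difference was -0.07 (SE 0.41) with an interval from 0.48 to 1.90-fold, and -0.36 on slide 1 alone. The other probe, A_52_P545705, pointed the opposite way, at -5.44, -5.06 and -6.20 in WT and -5.38, -3.63 and -4.68 in hNAG-1 mice. It was highest on hNAG-1 array 2, the groups overlapped, and its difference was 1.00 (SE 0.51, adjusted p = 0.484). The difference was 0.53 without hNAG-1 array 2 and 0.18 on slide 1 alone, and with normexp the sign turned, at -0.36.

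Skeletal muscle markers were highest on hNAG-1 array 2 as well, with a median level of 1.85 relative to the WT mean there and 1.30 on WT array 1, against -1.25 to -0.02 on the other arrays. Of 7 markers 6 had positive differences and none passed the test, and their median difference of 0.22 was -0.53 without hNAG-1 array 2 and -0.86 on slide 1 alone. Relative to the 75th percentile, their summed signal ranged from 42.8 to 208 in WT and 49.4 to 311 in hNAG-1 mice. Their part in the A_52_P545705 values was not tested.

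**Figure D4:**
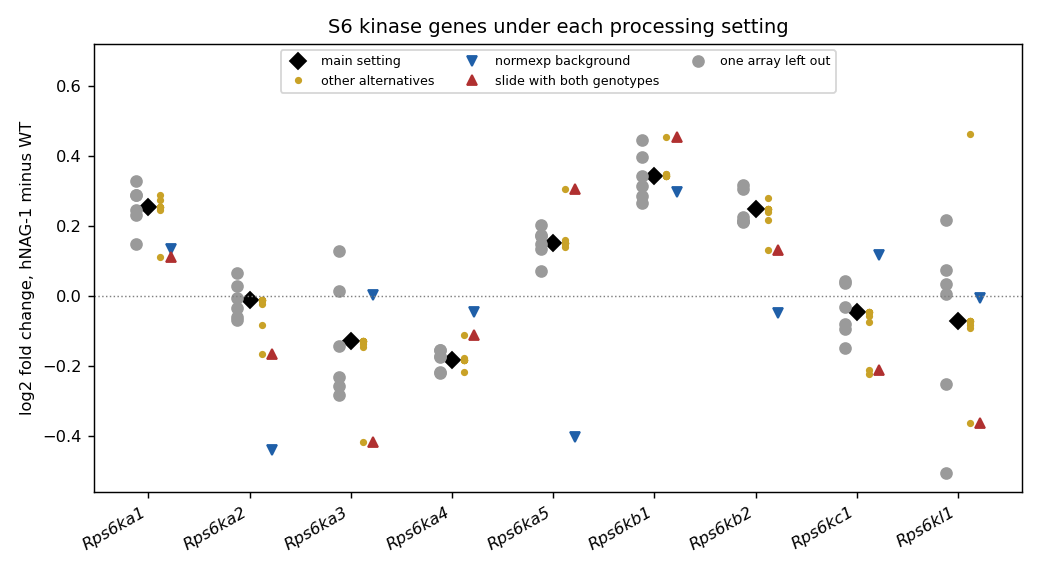
Log2 fold change, hNAG-1 minus WT, of 9 S6 kinase genes as reported (diamonds) and under 17 alternatives. Each gene is shown by its brightest tested probe, except where the probes of a gene were averaged. Symbols mark normexp background correction (down triangles), the 4 arrays of slide 1 (up triangles), each array left out (grey circles) and the other settings (small circles). Rps6kb1 and Rps6ka1 stay above 0 and Rps6ka4 below 0 in all 17 alternatives. Not all of these could change a difference: the filters, the brightest probe per gene, the variance trend and the replicate block leave it as it is. Slide as a fixed term and slide 1 alone give the same difference. Rps6kb2 and Rps6ka5 fall below 0 with normexp alone, and Rps6ka2, Rps6ka3, Rps6kc1 and Rps6kl1 fall on both sides in several settings.

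The genes around the kinases were counted by fixed lists, with 1 brightest probe a gene. None of the listed genes passed the adjusted threshold. Over all genes, 12.8% had an unadjusted p under 0.05 in limma, 59.0% had positive differences, and the median difference was 0.06. On slide 1 alone the list medians were 0.10 upstream of the S6Ks and 0.11 for S6K substrates. They were 0.24 for the ERK and p38 input to RSKs and MSKs and -0.02 for RSK and MSK substrates. Upstream of the S6Ks, 9 of 10 genes of mTORC1, its inhibitors and PDK1 had positive differences, counting Rptor at 0.00027 (SE 0.16). Their median was 0.14, and 0.06 with quantile normalization, and 1 gene had an unadjusted p under 0.05. That gene was Deptor, an mTOR-binding inhibitor, which read 3.41, 3.72 and 4.01 in WT and 4.18, 4.44 and 4.13 in hNAG-1 mice. The groups did not overlap, and the difference was 0.53 (SE 0.19, adjusted p = 0.368). Tbc1d7 (0.28), Mtor (0.23) and Tsc1 (0.18) followed. Pdpk1, which encodes PDK1, had a difference of 0.04.

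Of the S6K substrates, 7 of 11 had positive differences, with a median of 0.05 and none at an unadjusted p under 0.05. Rps6, the namesake substrate, differed by 0.01 (SE 0.14). The translation inhibitor Pdcd4 (0.30), the insulin receptor substrate Irs1 (0.37) and Poldip3 (0.18) had positive values and Cad, an enzyme of pyrimidine synthesis, a negative one (-0.36). Of the kinases and the scaffold that feed the RSKs and MSKs, 5 of 7 had positive differences, with a median of 0.17 and none at an unadjusted p under 0.05. Mapk14 (p38 alpha) was at 0.29, Map2k2 at 0.23 and Pea15a, which holds ERK in the cytoplasm, at -0.36.

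Of the RSK and MSK substrates, 7 of 13 had positive differences, with a median of 0.02; 2 positive and 2 negative ones had an unadjusted p under 0.05. The negative ones were Flna, an actin cross-linker, and Srf, a transcription factor of cytoskeletal genes. Flna read 6.78, 7.14 and 6.39 in WT and 5.61, 5.75 and 6.08 in hNAG-1 mice, so the groups did not overlap, and the difference was -0.96 (SE 0.23, adjusted p = 0.259). Srf was at -0.42 (adjusted p = 0.388). The positive ones were Bad, a pro-apoptotic protein (0.37, adjusted p = 0.294), and Ybx1, a nucleic acid-binding protein (0.31, adjusted p = 0.383).

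Smooth muscle markers were negative together with Flna and Srf. All 5 of 5 (Acta2, Myh11, Tagln, Cnn1 and Des) had negative differences and none passed the adjusted test, and their median level relative to the WT mean was 0.68 and 1.03 on WT arrays 1 and 2, -1.91 on WT array 3 and -2.05 to -1.07 on the hNAG-1 arrays. Their summed signal relative to the 75th percentile was 58.3 to 395 in WT and 56.9 to 89.8 in hNAG-1 mice. Their part in the Flna and Srf values was not tested.

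**Figure D5:**
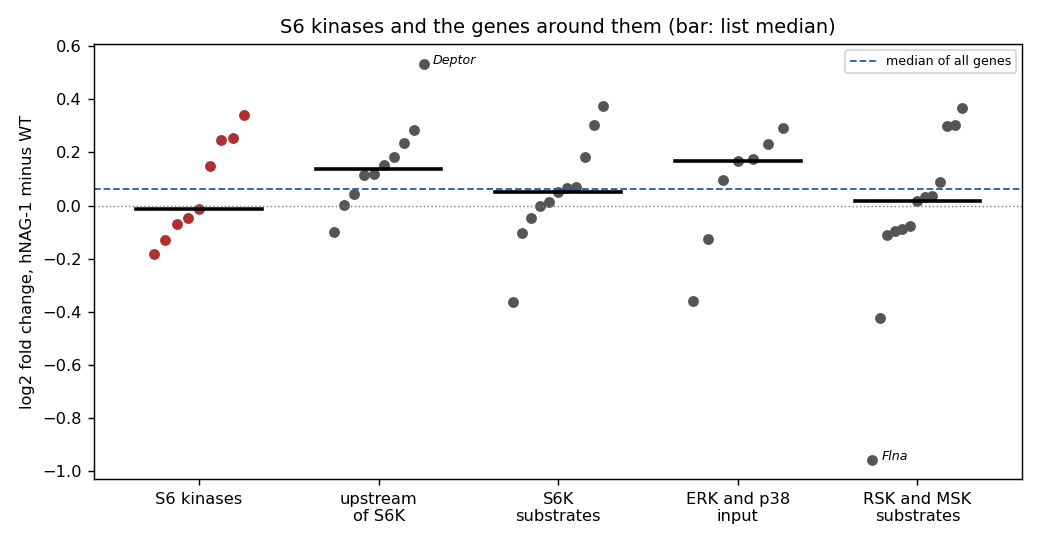
Log2 fold change, hNAG-1 minus WT, of the brightest probe of each gene in the S6 kinase family and in the lists of genes upstream and downstream of it (points, with list medians as black bars; the dashed line is the median of all genes, 0.06). List medians lie between -0.01 and 0.17, and Deptor and Flna are farthest from 0.

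By other cell types, the median difference was -0.26 for 8 macrophage markers, -0.17 for 8 endothelial markers, -0.25 for 8 fibroblast markers and -0.09 for 6 mesothelial markers. On slide 1 alone these medians were -0.27, -0.35, -0.06 and 0.14, and with normexp -0.12, -0.09, -0.04 and 0.05. Exocrine pancreas markers were highest on WT array 2, with a median of 3.26 relative to the WT mean over 5 tested markers; their median difference was -1.23 over all arrays and 0.27 without WT array 2, and Pnlip and Amy2a5 were not tested.

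Among 16373 named genes, those with a pattern over the 6 arrays close to that of the brightest Rps6kb1 probe included Pigg (Pearson r = 0.996) and Ptrhd1 (0.996). For Rps6ka3 the closest were Lrrc3 (0.996), Necab2 (0.992) and Ulk3 (0.991). These correlations are over 6 arrays that share their scaling and are given as a description.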

How the data were processed

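For each of the 6 arrays the authors deposited the scanner file, with intensity and quality flags per spot, made by Agilent Feature Extraction (version 9.5 per the submitters' processing notes); the study's methods name an Affymetrix array, whereas the deposited files have the Agilent format. The deposited table equals the scanner's processed signal, a background-subtracted intensity with no normalization between arrays, in 45018 of 45018 rows. After removal of 1639 control spots and of outliers by the scanner's flags, replicate spots were averaged per probe and put on a log2 scale relative to the 75th percentile of the array. A probe was kept if at least 3 of 6 arrays had it well above background; 33 such probes lacked a value on some array and were dropped. Family probes were found by their name in the files; 1 probe named by a clone and described as an S6 kinase was not used. Other probes were named by RefSeq accession (22951), symbol (6659), synonym (3109) or file name (8455). Genotypes were compared with limma 3.58.1 in R 4.3.3 (lmFit, eBayes, two-sided), and the procedure was tested on simulated data. All family genes are named. From each pathway list up to 4 genes with the largest moderated statistic are named, and Rps6, Pdpk1 and Rptor were added after their values were seen. Family genes and lists were chosen with earlier results of these data known. Some genes that these rules name are not reported here.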

Additional observations from a re-analysis of the deposited data

How the results depend on the processing

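No family probe passed the adjusted threshold under any of 17 alternatives, and over all probes none did in limma except with an intensity trend and robust variances, where 218 did (172 higher, 46 lower). Over the 9 family genes, 15 recomputed differences changed sign, each gene by its brightest probe or, with averaging, by the mean of its probes. They were in Rps6ka2 (2), Rps6ka3 (3), Rps6ka5 (1), Rps6kb2 (1), Rps6kc1 (3) and Rps6kl1 (5), and none in Rps6kb1, Rps6ka1 or Rps6ka4. Signs could not change with the filters on dim probes, the brightest probe per gene, the variance trend or the replicate block. Slide as a fixed term and slide 1 alone gave the same differences, so they are not separate checks. Normexp put the median of all probes at -0.25, with 30.8% of them above 0, and Rps6ka2 at -0.44. The values that changed sign with it were Rps6ka3 (0.0040), Rps6ka5 (-0.40), Rps6kb2 (-0.047) and Rps6kc1 (0.12); averaging the probes of a gene put Rps6kl1 at 0.46. The cause was not tested. Leaving out 1 array at a time gave -0.068 to 0.065 for Rps6ka2, -0.28 to 0.13 for Rps6ka3, -0.15 to 0.044 for Rps6kc1 and -0.51 to 0.22 for Rps6kl1. Split by direction, 2575 of 31456 probes were higher and 1292 lower at an unadjusted p under 0.05 in limma. These counts were 1257 and 1199 once slide entered as a fixed term, and 409 and 139 with normexp. Of the 17 family probes, 4 were higher at an unadjusted p under 0.05 with quantile normalization, where 2528 of all 31456 probes were. With an intensity trend and robust variances 3 family probes were higher, against 2864 of all probes. Without WT array 3 it was 3 against 2844, and without hNAG-1 array 1 it was 3 against 3409. The family count was 1 in the main setting and with any other array left out, and 0 with normexp. With 1 row per gene, by the brightest probe or the mean of probes, it was 0 of 9 genes.

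The labels do not say whether the replicate numbers pair the arrays. Deviations of same-numbered arrays from their group means correlated at 0.08, 0.49 and 0.08 across probes. The best match was the own number for replicate 2 alone, and these values do not settle whether arrays are paired. With the replicate block 0 family probes passed the adjusted threshold and 2 had an unadjusted p under 0.05, against 1 without it, and 2162 probes were higher and 1322 lower; the Rps6kb1 difference stayed at 0.34 (adjusted p = 0.486). Signal over background limits Rps6ka6 and the dim probes of Rps6kb1, Rps6kb2, Rps6kc1 and Rps6kl1.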
